A study of Mus musculus with 15 samples.

Results

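The genes described here encode the 3 large families of conjugating enzymes: glutathione transferases, UDP-glycosyltransferases and cytosolic sulfotransferases. They were taken as the genes with a symbol of the Gst, Mgst, Ugt or Sult series that the platform annotation gave as the only gene of a probe set. Where a gene had several probe sets, the brightest on average stood for it. This gave 44 genes, measured by 58 probe sets, of 17097 genes measured in the series. Of the 44 genes 30 were bright enough to be tested (above the 40th percentile of their array in at least 3 arrays), among 13523 genes tested in all.

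RNA came from cells sorted by flow cytometry as PDGFRa-positive fibroblasts from kidneys of adult C57BL/6 mice, and was measured on 15 oligonucleotide arrays in 5 groups of 3. The injured groups were kidneys at day 3 (arrays 1 to 3), day 7 (arrays 4 to 6) and day 14 (arrays 7 to 9) after folic acid, and kidneys at day 14 of unilateral ureteral obstruction, UUO (arrays 10 to 12). Uninjured kidneys (arrays 13 to 15) were the controls. Folic acid at a toxic dose damages the tubules acutely, and a blocked ureter leads to lasting fibrosis; the labels name no vehicle or sham operation, no sex and no batch.

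Conjugating enzymes attach a large polar group to drugs, hormones and reactive lipid products, which can then be pumped out of the cell. Glutathione transferases add the tripeptide glutathione, UDP-glycosyltransferases add a sugar, usually glucuronic acid, and sulfotransferases add sulfate from the donor PAPS. In the kidney many of these enzymes are abundant in the proximal tubule, the segment that secretes organic acids, whereas some glutathione transferases are made by nearly every cell type.

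Members moved in both directions after injury. Those that fell were mainly UDP-glycosyltransferases, alpha class glutathione transferases and the sulfotransferases Sult1d1 and Sult1c2. In UUO 10 members fell, a share of 33.3% beside 7.52% of all genes. The members that rose were Sult5a1, Gsto1 and Gstp1. In no injured group was the share that rose larger than among all genes (6.67% beside 9.07% in UUO). In UUO 12 of the 30 tested members differed from uninjured kidney, beside 16.6% of all genes, and at day 14 after folic acid 1 did, beside 5.67% of all genes. Proximal tubule markers moved as well, with 9 of 12 lower in UUO and 0 lower at day 14 after folic acid, and their part in these falls was not tested.

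Stretches of 3 promoters are shown because these genes stand for both directions and hold a motif of a factor with a known part in stress or in tubule cells. Each stretch is the 120 bases before the transcription start, 5′ to 3′ on the gene's own strand, with the motif in capitals. They are RefSeq sequences on GRCm38.p6, at chr19:4037913-4038032 (minus strand) for Gstp1, chr5:87569007-87569126 (minus strand) for Sult1d1 and chr1:88070659-88070778 (plus strand) for Ugt1a9.
Gstp1: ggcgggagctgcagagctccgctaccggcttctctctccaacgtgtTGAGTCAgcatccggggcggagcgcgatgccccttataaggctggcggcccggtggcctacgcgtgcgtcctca
Sult1d1: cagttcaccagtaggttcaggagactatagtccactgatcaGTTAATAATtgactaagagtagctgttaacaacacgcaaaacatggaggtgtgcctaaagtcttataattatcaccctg
Ugt1a9: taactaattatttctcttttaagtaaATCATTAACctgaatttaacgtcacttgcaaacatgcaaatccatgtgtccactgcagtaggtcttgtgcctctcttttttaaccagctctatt

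The capitals in Gstp1 mark an AP-1 site, TGAGTCA, the letters bound by Fos and Jun proteins, 74 to 68 bases before the start. Those in Sult1d1 and Ugt1a9 mark a part of the site of HNF1, a factor of liver and tubule epithelium, written GTTAATNAT; it lies 79 to 71 bases before the start of Sult1d1 and, on the other strand, 94 to 86 bases before that of Ugt1a9. Of the 44 genes 39 had a promoter in the table, with 49 promoters in all. Ugt3a2 and Gsta4 had none. In the 250 bases before the start, on both strands, the AP-1 site was in 6 of these 49 promoters and in 4.46% of 32851 mouse promoters. Those 6 were of Gstp1, Mgst2, Gstm5, Ugt2b37, Sult2b1 and Sult1c1. Among these genes only Gstp1 passed in a comparison, and Sult2b1 and Sult1c1 were too dim to be tested. The other members that rose, Sult5a1 and Gsto1, held no AP-1 site there. The HNF1 part site was in 2 of the 49 and in 0.737% of all. The core of the antioxidant response element, TGACNNNGC, which Nrf2 binds, was in 3 of the 49 (Gstm5, Gstm7 and Mgst1) and in 10.2% of all. A part of the HNF4 site, CAAAGTCCA, was in 0 of the 49 and in 0.384% of all. These matches describe letters only, and the motifs were chosen with the expression values known. Whether the Ugt1a9 probe set reads only transcripts from the promoter shown was not checked.

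Values are RMA log2 intensities, means are given ± SD (n = 3 arrays per group), and each change is a difference of group means on the log2 scale, followed by its standard error (SE). Adjusted p-values are limma's, by Benjamini-Hochberg over the 13523 genes, and a gene passed at an adjusted p under 0.05. Separate mice are not stated in the labels for arrays of the same group, so these p-values measure only the spread between the samples, which may be technical. The number of arrays limits the precision. Levels of different probe sets are not comparable, so "the brightest" of a class says only which gene was picked for naming, and changes of dim genes may be understated, since the deposited values have no true zero.

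The sort label was checked against 8 fibroblast markers. Their mean lay between 9.21 and 9.26 in UUO, between 7.13 and 8.63 after folic acid and between 5.38 and 6.18 in uninjured kidney, where 2 to 4 of the 8 were below the 40th percentile of their array. Col1a1 averaged 12.23 in UUO and 6.81 in uninjured kidney, and Pdgfra, the gene of the sorting marker, 5.99 in UUO and 6.01 in uninjured kidney. The mean of 12 proximal tubule markers was 6.44, 6.16 and 6.50 at folic acid day 3, 8.30, 7.28 and 5.65 at day 7 and 9.10, 9.11 and 6.98 at day 14. It was 5.94, 5.46 and 5.73 in UUO, against 8.09, 8.49 and 9.38 in uninjured kidney. Tubule transcripts were thus bright in every uninjured array and in folic acid arrays 4, 7 and 8, and low in every folic acid day 3 and UUO array. Of these 12 markers 9 fell in UUO. After folic acid 4 fell on day 3, 1 on day 7 and 0 on day 14 (limma; 10 in UUO and then 7, 7 and 0 lower at an unadjusted p under 0.05). The mean of 10 distal nephron markers was 5.99 to 6.30, 5.93 to 7.49 and 7.53 to 8.38 at folic acid days 3, 7 and 14, and 5.48 to 5.80 in UUO, against 8.07 to 8.61 in uninjured kidney. The mean of 8 macrophage markers was 5.88 to 5.96, 7.93 to 8.62 and 7.14 to 8.88 at folic acid days 3, 7 and 14, and 5.97 to 6.10 in UUO, against 4.96 to 5.27 in uninjured kidney. In such bulk RNA fewer cells of a type and less RNA per cell cannot be told apart.

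Over all 5 groups 9 of the 30 members differed in limma's F test, a share of 30.0% beside 15.3% of all genes tested. The count was 5 without array 14, where 1107 of all genes passed against 2070 with all arrays. In order of their p the 9 members were Sult5a1, Ugt3a1, Ugt3a2, Ugt1a6a, Gstp1, Gsta4, Gsto1, Sult1d1 and Gsta2. The F-test call of Gsta2 (adjusted p = 0.0407) was lost on leaving out any of 12 single arrays, all but 4, 6 and 9 (F 4.33 to 6.04, adjusted p 0.0604 to 0.109). That of Gsto1 ended without array 1, 2, 13 or 14 (adjusted p 0.0534 to 0.0891). It also ended after quantile normalization (adjusted p = 0.0629) and with the gene's other probe set (F 2.75, adjusted p = 0.218). The call of Sult1d1 ended without array 10, 11 or 12 (adjusted p 0.0552 to 0.0758). Those of Gsta4 (adjusted p 0.0530 to 0.0651) and Gstp1 (adjusted p 0.0518 to 0.0599) ended without array 14 or 15. The heat map of the 30 members shows the blocks that follow.

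**Figure D1:**
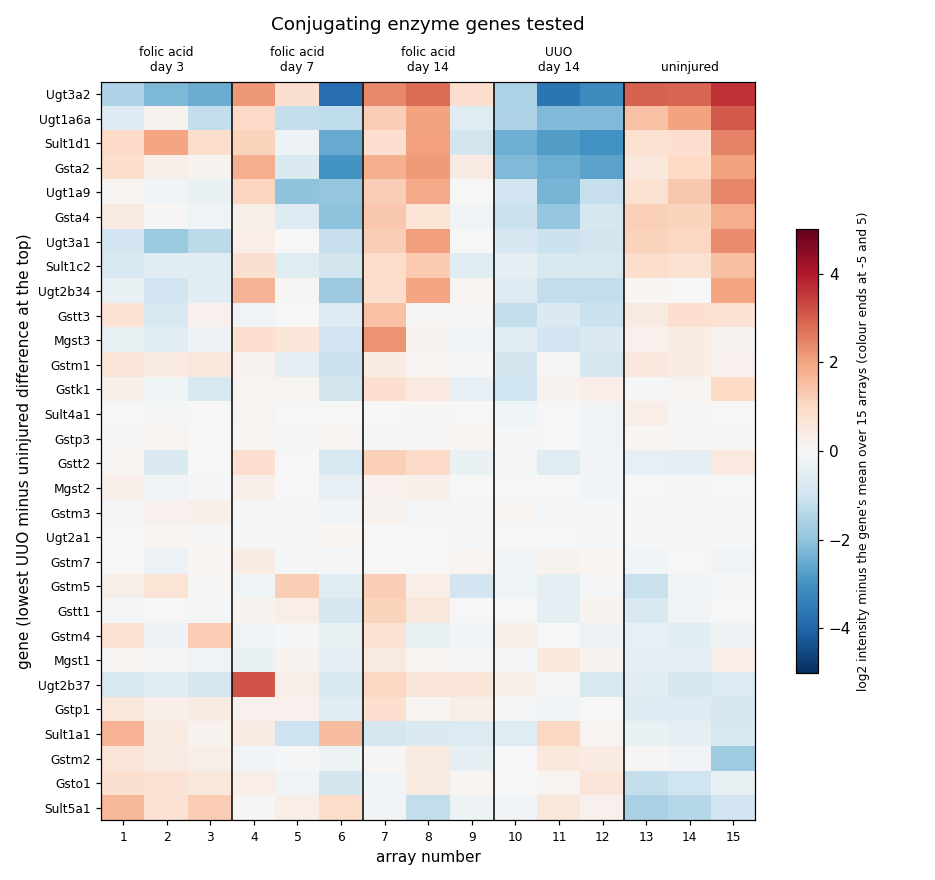
Log2 intensity of the 30 tested members on each of the 15 arrays, minus the gene's mean over all arrays; columns are arrays, in their groups, and genes run from the lowest to the highest UUO minus uninjured difference. The upper genes, led by Ugt3a2, are blue in the UUO arrays and in folic acid array 6 and red in the uninjured arrays and in folic acid arrays 7 and 8, and Gsto1 and Sult5a1 at the bottom are blue in the uninjured arrays.

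Among the UDP-glycosyltransferases, the UGT3 and UGT1 genes passed and the UGT2 genes, with the probe sets used, did not. Ugt3a2, whose human counterpart transfers glucose and xylose rather than glucuronic acid, read 6.90, 6.20 and 5.98 at folic acid day 3 and 10.60, 9.25 and 4.65 at day 7. It read 10.86, 11.24 and 9.28 at day 14 and 6.85, 4.79 and 5.25 in UUO, against 11.40, 11.35 and 12.08 in uninjured kidney. Every folic acid and UUO array lay below every uninjured array, and the day 7 arrays spanned nearly the whole range. Ugt3a2 fell 38.0-fold at folic acid day 3 (log2 -5.25, SE 1.16, adjusted p = 0.00857) and 63.0-fold in UUO (log2 -5.98, SE 1.16, adjusted p = 0.00397). At folic acid day 7 it stood at log2 -3.44 (SE 1.16, adjusted p = 0.0755) and at day 14 at log2 -1.15 (SE 1.16, adjusted p = 0.629), and neither passed.

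Ugt3a1, whose human counterpart transfers N-acetylglucosamine, read 6.66, 5.78 and 6.34 at folic acid day 3, 7.96, 7.60 and 6.49 at day 7 and 8.88, 9.74 and 7.60 at day 14. It read 6.79, 6.54 and 6.73 in UUO, against 8.78, 8.65 and 9.98 in uninjured kidney. Days 3 and 7 and UUO lay wholly below uninjured kidney, whereas day 14 overlapped it. It fell 7.35-fold at day 3 (log2 -2.88, SE 0.53, adjusted p = 0.00282) and 5.47-fold in UUO (log2 -2.45, SE 0.53, adjusted p = 0.00716). The fall at day 7 (log2 -1.79, SE 0.53, adjusted p = 0.0454) was lost on leaving out any of 12 single arrays, all but 4, 8 and 9 (log2 -2.03 to -1.36, adjusted p 0.0533 to 0.173). The probe set used for Ugt3a1 can bind related transcripts. The gene's second probe set gave log2 -3.29, -2.32, -0.53 and -3.17 at folic acid days 3, 7, 14 and in UUO against uninjured kidney.

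The UGT1 family is made from 1 locus whose transcripts join different first exons to shared last exons, so probe sets in the shared part cannot tell its members apart. Ugt1a6a, which adds glucuronic acid to small phenols, read 7.77, 8.61 and 7.17 at folic acid day 3, 9.38, 7.22 and 7.13 at day 7 and 9.63, 10.44 and 7.80 at day 14. It read 6.86, 6.21 and 6.20 in UUO, against 9.90, 10.44 and 11.47 in uninjured kidney. UUO was the lowest group, with no array above 6.86, and only day 14 overlapped uninjured kidney. It fell 18.1-fold in UUO (log2 -4.18, SE 0.72, adjusted p = 0.00195), 6.74-fold at day 3 (log2 -2.75, SE 0.72, adjusted p = 0.0207) and 6.45-fold at day 7 (log2 -2.69, SE 0.72, adjusted p = 0.0309). The day 3 call ended without array 1, 3, 14 or 15 (log2 -2.84 to -2.32, adjusted p 0.0538 to 0.0878) and the day 7 call without array 5, 6, 14 or 15 (log2 -2.77 to -2.26, adjusted p 0.0774 to 0.12). The day 14 difference was log2 -1.31.

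Ugt1a9, a broad phenol glucuronidating enzyme, averaged 8.74 ± 0.22, 7.93 ± 1.76 and 9.91 ± 0.93 at folic acid days 3, 7 and 14 and 7.38 ± 0.73 in UUO, against 10.38 ± 0.87 in uninjured kidney. It fell 7.98-fold in UUO (log2 -3.00, SE 0.76, adjusted p = 0.0179). That call ended without array 11 or 15 (log2 -2.58 and -2.52, adjusted p 0.0728 and 0.0793). In the UGT2 family 7 genes were measured and 3 tested, and these 3 did not pass in any of the 6 pair comparisons or in the F test. Ugt2b34, the brightest, averaged 5.44 ± 0.31, 6.06 ± 1.76 and 7.07 ± 0.94 at folic acid days 3, 7 and 14 and 5.04 ± 0.34 in UUO, against 6.75 ± 1.12 in uninjured kidney (UUO difference log2 -1.71, SE 0.77, adjusted p = 0.159). The probe set used for Ugt2b34 can bind related transcripts. With the gene's other probe set in its place, the UUO fall was log2 -3.04 and passed (limma, adjusted p = 0.044). Ugt2b37, named after its values were seen, read 7.38 on folic acid array 4 and between 3.39 and 5.29 on the other 14 arrays. It read 5.29, 4.87 and 4.86 at folic acid day 14, against 3.73, 3.39 and 3.58 in uninjured kidney. That difference did not pass (log2 1.44, SE 0.70, limma, adjusted p = 0.276). Ugt8a, the galactosyltransferase that makes the myelin lipid galactosylceramide, was dim on these arrays (mean 3.67).

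**Figure D2:**
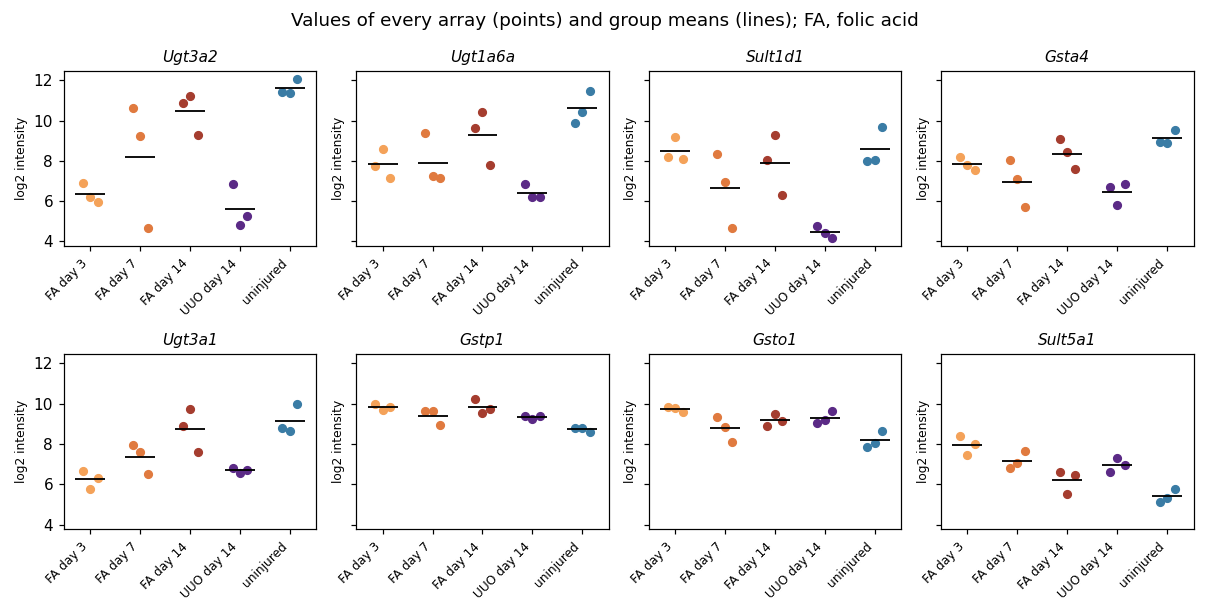
Log2 intensity of the 8 members with the smallest F-test p, 1 panel per gene, with the 5 groups on the horizontal axis; points are the 3 arrays of a group and lines their mean. Ugt3a2, Ugt1a6a, Sult1d1, Gsta4 and Ugt3a1 are low in UUO, while Gstp1, Gsto1 and Sult5a1 are above uninjured kidney on every folic acid day 3 and UUO array.

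Among sulfotransferases 5 of 13 genes measured were tested. Sult1d1, which sulfates dopamine and other catecholamines in the mouse, read 8.18, 9.18 and 8.09 at folic acid day 3, 8.33, 6.96 and 4.67 at day 7 and 8.05, 9.27 and 6.30 at day 14. It read 4.76, 4.43 and 4.17 in UUO, against 7.99, 8.05 and 9.70 in uninjured kidney. Day 3 lay within the uninjured range and UUO far below it. Sult1d1 fell 17.5-fold in UUO (log2 -4.13, SE 0.88, adjusted p = 0.00665), and this call held in every alternative tried. At day 3 its difference was log2 -0.10 (SE 0.88, 95% interval -2.00 to 1.80), at day 7 log2 -1.93 (adjusted p = 0.179) and at day 14 log2 -0.71 (adjusted p = 0.703). A second probe set gave log2 -2.66 in UUO and 0.74 at day 3.

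Sult1c2, a sulfotransferase of phenols, averaged 4.67 ± 0.13, 5.10 ± 0.92 and 5.87 ± 1.02 at folic acid days 3, 7 and 14 and 4.63 ± 0.19 in UUO, against 6.37 ± 0.40 in uninjured kidney. It fell 3.25-fold at day 3 (log2 -1.70, SE 0.48, adjusted p = 0.0311) and 3.34-fold in UUO (log2 -1.74, SE 0.48, adjusted p = 0.0276). The day 3 call ended without any 1 of arrays 1, 2, 3, 13, 14 and 15 (log2 -1.84 to -1.47, adjusted p 0.0588 to 0.115). The UUO call ended without any 1 of arrays 11 to 15 (log2 -1.88 to -1.51, adjusted p 0.0531 to 0.107).

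Sult5a1, a less studied member of the family, went the other way. It read 8.41, 7.48 and 8.01 at folic acid day 3, 6.80, 7.06 and 7.67 at day 7 and 6.61, 5.53 and 6.48 at day 14. It read 6.63, 7.32 and 6.94 in UUO, against 5.11, 5.32 and 5.78 in uninjured kidney. Days 3 and 7 and UUO lay wholly above uninjured kidney, and day 14 overlapped it through array 8. Sult5a1 rose 5.91-fold at day 3 (log2 2.56, SE 0.34, adjusted p = 0.00035), 3.42-fold at day 7 (log2 1.77, SE 0.34, adjusted p = 0.00593) and 2.95-fold in UUO (log2 1.56, SE 0.34, adjusted p = 0.00806). These 3 calls and its F-test call held in every alternative tried. At day 14 the difference was log2 0.81 (adjusted p = 0.205). Sult1a1, named after its values were seen, spread widely at day 3 (8.62, 7.34 and 7.06), at day 7 (7.30, 5.87 and 8.44) and in UUO (6.28, 7.94 and 7.04). It spread less at day 14 (6.04, 6.17 and 6.19) and in uninjured kidney (6.53, 6.41 and 6.08). Its day 3 difference from uninjured kidney was log2 1.33 (limma, adjusted p = 0.142), and Sult1a1 did not pass in any comparison.

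Of the 18 glutathione transferases tested, 6 passed in at least 1 comparison. Of the alpha class, Gsta4 conjugates 4-hydroxynonenal, a product of lipid peroxidation. It read 8.20, 7.80 and 7.55 at folic acid day 3, 8.03, 7.11 and 5.69 at day 7 and 9.08, 8.42 and 7.58 at day 14. It read 6.69, 5.81 and 6.87 in UUO, against 8.96, 8.87 and 9.55 in uninjured kidney. Only day 14 overlapped uninjured kidney. Gsta4 fell 6.37-fold in UUO (log2 -2.67, SE 0.53, adjusted p = 0.00451) and 4.55-fold at day 7 (log2 -2.19, SE 0.53, adjusted p = 0.0197). The day 7 call ended without array 5, 6 or 15 (log2 -2.27 to -1.56, adjusted p 0.05 to 0.0784). At day 3 it stood at log2 -1.28 (adjusted p = 0.12).

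Gsta2, also of the alpha class, averaged 9.83 ± 0.37, 8.75 ± 2.40 and 10.82 ± 0.92 at folic acid days 3, 7 and 14 and 6.94 ± 0.23 in UUO, against 10.57 ± 0.76 in uninjured kidney. It fell 12.4-fold in UUO (log2 -3.63, SE 0.90, adjusted p = 0.0153), and that call ended without array 15 (log2 -3.21, adjusted p = 0.0655). Its second probe set, of a kind that can bind related transcripts, gave log2 -5.03 in UUO and disagreed after folic acid, with log2 -2.39 at day 3 and -1.23 at day 14 against -0.74 and 0.25 for the probe set used.

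Gstp1, the pi class enzyme found in most cell types, read 9.98, 9.69 and 9.83 at folic acid day 3, 9.65, 9.63 and 8.92 at day 7 and 10.25, 9.56 and 9.74 at day 14. It read 9.37, 9.25 and 9.40 in UUO, against 8.80, 8.78 and 8.59 in uninjured kidney. All 12 arrays of injured kidney lay above all 3 of uninjured kidney. Gstp1 rose 2.16-fold at day 3 (log2 1.11, SE 0.21, adjusted p = 0.00387) and 2.18-fold at day 14 (log2 1.13, SE 0.21, adjusted p = 0.00929). At day 7 it was 0.68 higher on the log2 scale (SE 0.21, adjusted p = 0.0591) and in UUO 0.62 higher (SE 0.21, adjusted p = 0.068), and neither passed. Without arrays 4, 7 and 8 together only array 9 was left at day 14, and the difference was log2 1.01. That setting was chosen after seeing the data because these arrays were rich in tubule transcripts.

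Gsto1, the omega class enzyme that reduces dehydroascorbate, read 9.86, 9.77 and 9.60 at folic acid day 3, 9.36, 8.87 and 8.12 at day 7 and 8.92, 9.50 and 9.15 at day 14. It read 9.07, 9.19 and 9.64 in UUO, against 7.87, 8.04 and 8.65 in uninjured kidney. Day 7 overlapped uninjured kidney and the other injured groups did not. It rose 2.95-fold at day 3 (log2 1.56, SE 0.30, adjusted p = 0.00382) and 2.16-fold in UUO (log2 1.11, SE 0.30, adjusted p = 0.0232). The UUO call ended without array 11, 12, 13 or 14 (log2 0.94 to 1.17, adjusted p 0.05 to 0.0908) and after quantile normalization (log2 0.87, adjusted p = 0.0621). The probe set used can bind related transcripts. The other probe set gave log2 1.23 at day 3 (adjusted p = 0.055) and 0.93 in UUO (adjusted p = 0.141), neither of which passed.

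Of the mu class, whose 7 measured genes lie on chromosome 3, 6 were tested and 1 passed in 1 comparison. Gstm1, the brightest of the class, averaged 9.64 ± 0.11, 8.65 ± 0.62 and 9.27 ± 0.22 at folic acid days 3, 7 and 14 and 8.53 ± 0.54 in UUO, against 9.48 ± 0.15 in uninjured kidney. Its UUO difference of log2 -0.95 (SE 0.30, adjusted p = 0.0491) passed narrowly and was lost on leaving out any of 12 single arrays, all but 4, 6 and 11 (log2 -1.02 to -0.78, adjusted p 0.0532 to 0.159). A second probe set gave log2 -0.96, and 2 others gave 0.10 and -0.02. Averaging the probe sets gave log2 -0.46 (adjusted p = 0.425).

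In the theta class Gstt3 averaged 5.47 ± 0.76, 5.14 ± 0.36 and 5.93 ± 0.81 at folic acid days 3, 7 and 14 and 4.41 ± 0.25 in UUO, against 6.08 ± 0.20 in uninjured kidney. It fell 3.17-fold in UUO (log2 -1.67, SE 0.41, adjusted p = 0.0144), and that call ended without array 14 (log2 -1.58, adjusted p = 0.0544). Its neighbour on chromosome 10, Gstt1, the brightest theta gene, averaged 8.53 ± 0.31 in UUO and 8.32 ± 0.41 in uninjured kidney, a difference of log2 0.21 with a 95% interval from -0.51 to 0.93. The kappa gene Gstk1, an enzyme of mitochondria and peroxisomes, averaged 7.24 ± 0.73 in UUO and 7.75 ± 0.58 in uninjured kidney (log2 -0.52, 95% interval -1.53 to 0.50). Of the 3 microsomal transferases, membrane enzymes that also reduce lipid peroxides, Mgst1 was the brightest and averaged 8.81 ± 0.31 in UUO and 8.41 ± 0.45 in uninjured kidney (log2 0.40, 95% interval -0.15 to 0.96). Gstt1, Gstk1 and Mgst1 did not pass in any comparison.

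The 14 members left out as dim were Gstm6, Ugt2a3, Ugt2b1, Ugt2b35, Ugt2b5, Ugt8a, Sult1b1, Sult1c1, Sult1e1, Sult2a2, Sult2a8, Sult2b1, Sult3a1 and Sult6b1. Their levels were not read as absence. The tested members not named with values above (Gstm2 to Gstm5, Gstm7, Gstp3, Gstt2, Mgst2, Mgst3, Sult4a1 and Ugt2a1) passed in no comparison.

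By comparison with uninjured kidney, 7 of the 30 members passed at folic acid day 3, 3 higher and 4 lower. This was 23.3% of the members beside 17.0% of all genes tested (10.6% higher and 6.39% lower). The median change of the members was log2 -0.06 and that of all genes 0.02. At day 7, 4 members passed, 1 higher and 3 lower (13.3%, beside 11.7% of all genes, 7.50% higher and 4.19% lower), with medians of -0.03 and 0.01. By direction, 13.3% of the members were lower at day 3 and 10.0% at day 7. Over all genes 1580 passed at day 7 with all arrays and 1622 without array 4. Without array 5, 14 or 15 the number was 904, 880 or 888. The day 7 count of members moved with single arrays too, to 9 without array 4 (8 of them lower), 2 without array 14 and 1 without array 5 or 15. It was 10, 9 of them lower, without arrays 4, 7 and 8 together. At day 14, 1 member rose and 0 fell in limma's test (4 and 0 at an unadjusted p under 0.05), 3.33% beside 5.67% of all genes (4.20% higher and 1.47% lower), with medians of 0.10 and 0.02. The day 14 count was 3 without array 4 and 2 without array 6, all of them higher. Of all genes 810 and 775 passed there, against 767 with all arrays. Without arrays 4, 7 and 8 together only array 9 was left at day 14. It differed from uninjured kidney by log2 -2.80 for Ugt1a6a, -1.66 for Sult1c2 and 1.01 for Gstp1.

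In UUO 12 of the 30 members passed against uninjured kidney, 2 higher and 10 lower. Of all genes tested 16.6% passed. Of the members 33.3% were lower beside 7.52% of all genes, and 6.67% were higher beside 9.07% of all genes. The median was log2 -0.15 for the members and -0.01 for all genes. The 10 that fell were both alpha, 1 of 6 mu and 1 of 3 theta glutathione transferases, both UGT1 and both UGT3 genes, and 2 of 5 sulfotransferases, among those tested. Whether the probe sets of both UGT1 genes read separate transcripts was not checked. The members were described by these counts only, and their difference from all genes was not tested.

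**Figure D3:**
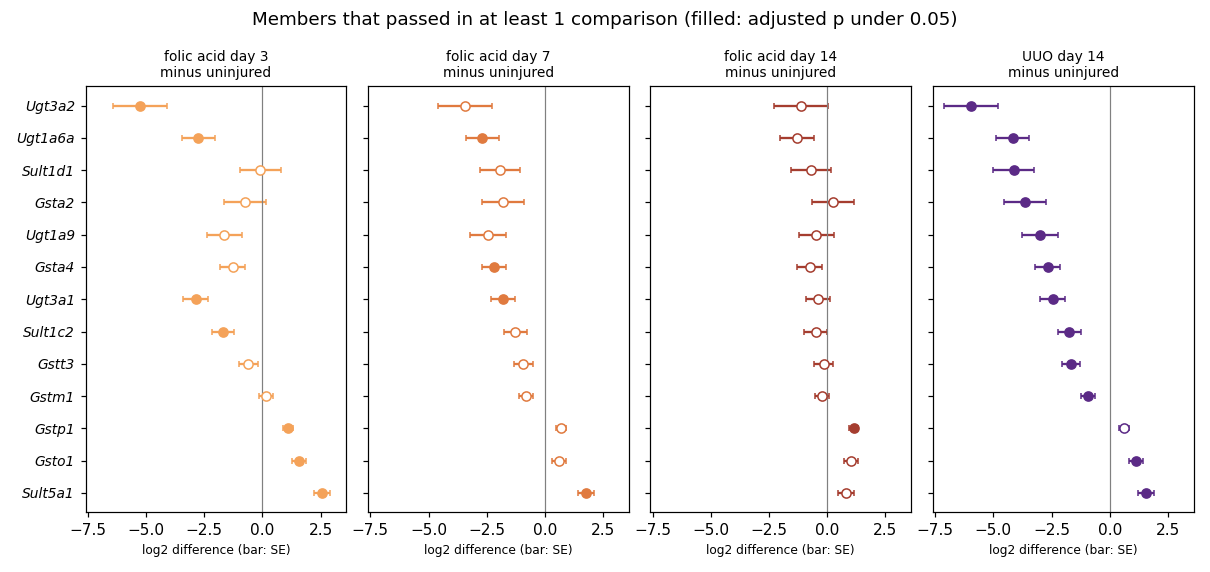
Log2 difference of each injured group from uninjured kidney, with its SE, for the 13 members that passed in at least 1 test; filled points passed at an adjusted p under 0.05 and open ones did not. From Ugt3a2 (-5.98 in UUO) down to Gstm1 the UUO points lie left of 0, and Sult5a1, Gsto1 and Gstp1 lie right of 0 in every panel.

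The chronic and the acute model were compared at the same day, UUO day 14 against folic acid day 14. Here 2 of the 30 members passed, 0 higher and 2 lower (limma; 1 and 13 at an unadjusted p under 0.05). This was 6.67% of the members beside 3.03% of all genes (1.28% higher and 1.75% lower). Ugt3a2 fell by 4.83 on the log2 scale (SE 1.16, adjusted p = 0.0447) and Gsta2 by 3.88 (SE 0.90, adjusted p = 0.0385). Each call was lost on leaving out any of several single arrays. For Ugt3a2 these were 12 arrays, all but 4, 6 and 9 (log2 -5.44 to -4.41, adjusted p 0.0517 to 0.148), and for Gsta2 11 arrays, all but 4, 6, 9 and 15 (log2 -4.00 to -3.53, adjusted p 0.0515 to 0.12). Without arrays 4, 7 and 8 together only array 9 was left at folic acid day 14. Ugt3a2 then stood at log2 -3.65 and Gsta2 at log2 -2.83. Sult1d1 was 3.43 lower on the log2 scale in UUO (SE 0.88, adjusted p = 0.0559) and did not pass. The count of members that passed was 7, 6 and 8, all lower, without array 4, 6 or 9. It was 1 without array 2 or 15, and 0 without any other single array. Of all genes 571, 542 and 698 passed without array 4, 6 or 9. Without any other single array 163 to 382 did, against 410 with all arrays. The median change of the members was log2 -0.59, beside -0.01 for all genes.

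Late against early folic acid injury, day 14 against day 3, 2 members passed, 1 higher and 1 lower. This was 6.67% of the members beside 3.05% of all genes (1.22% higher and 1.83% lower), with medians of log2 0.16 and -0.01. Ugt3a1 was 2.48 higher on the log2 scale (SE 0.53, adjusted p = 0.0266), a call that ended without array 1, 2, 3, 7 or 8 (log2 1.98 to 2.68, adjusted p 0.0517 to 0.0988). Sult5a1 fell by 1.76 on the log2 scale (SE 0.34, adjusted p = 0.017), a call that ended without array 1 (log2 -1.54, adjusted p = 0.0702) or 3 (log2 -1.74, adjusted p = 0.0592). Without arrays 4, 7 and 8 together only array 9 was left at day 14. Ugt3a1 then stood at log2 1.34 and Sult5a1 at log2 -1.49. The count of members was 4 without array 4, 1 without array 2, 7 or 8 and 0 without array 1 or 3. Of all genes 527 passed without array 4, against 412 with all arrays. Without array 1, 2, 3, 7 or 8 the number was 155 to 324. Ugt3a2 was 4.10 higher at day 14 (SE 1.16, adjusted p = 0.0821) and did not pass. These comparisons share arrays with those against uninjured kidney.

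The order of arrays was set beside that of the proximal tubule markers. Within each group of 3 arrays, the array with the highest mean of the 12 tubule markers also had the highest value in 4 of 5 groups for 7 of the 10 members that fell in UUO (Ugt3a2, Ugt3a1, Ugt1a6a, Ugt1a9, Gsta2, Sult1c2 and Sult1d1). It did so in 2 of 5 groups for Gsta4, 1 of 5 for Gstm1 and 0 of 5 for Gstt3, the other members that fell there. Of the members that rose, it did so in 3 of 5 groups for Gsto1 and in 1 of 5 for Gstp1 and Sult5a1. The array with the lowest marker mean also had the lowest value in 4 of 5 groups for Gstt3 and Ugt3a1. It did so in 3 of 5 groups for the others of the 10 that fell. For Gstp1 it did so in 3 of 5 groups, and for Gsto1 and Sult5a1 in 2 of 5. Some members that did not pass matched as often. For Ugt2b34 the highest and the lowest array each matched in 4 of 5 groups. For Gstt2 and Mgst3 the highest matched in 3 and the lowest in 4 of 5. For Sult1a1 and Gstp3 both matched in 0 of 5. Such matches were not counted over all genes tested. At folic acid day 3, when the tubule marker mean lay between 6.16 and 6.50, Sult1d1 lay within its own uninjured range (8.09 to 9.18, against 7.99 to 9.70 in uninjured kidney). Ugt3a2 lay below its own (5.98 to 6.90, against 11.35 to 12.08 in uninjured kidney). The part of tubule transcripts in these results was not tested.

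**Figure D4:**
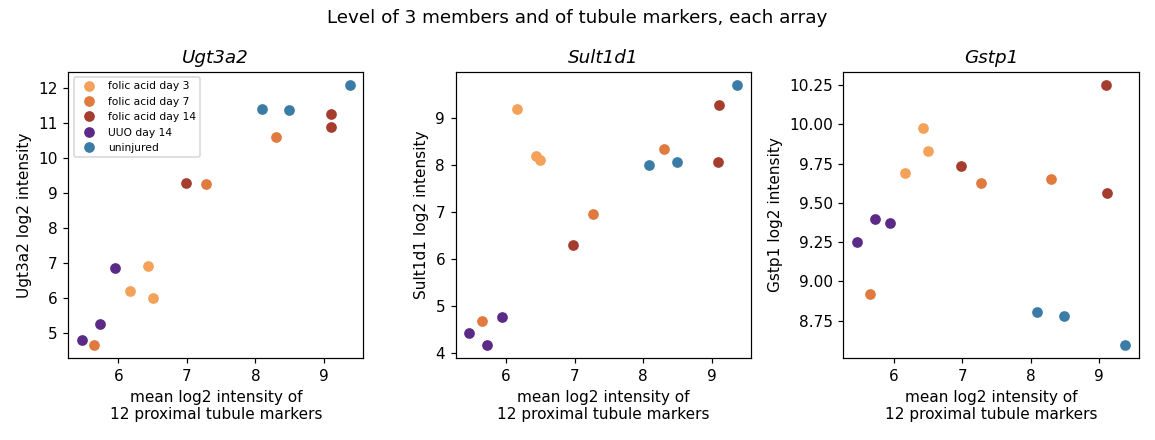
Level of Ugt3a2, Sult1d1 and Gstp1 (log2 intensity, vertical axis) against the mean log2 intensity of 12 proximal tubule markers on each of the 15 arrays, coloured by group. Ugt3a2 is high where the markers are high; for Sult1d1 the 3 folic acid day 3 arrays lie apart, at 8.09 to 9.18 with a marker mean of 6.16 to 6.50; for Gstp1 the uninjured arrays are the lowest while their marker mean is high.

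Supply of the conjugated groups was described from lists of other genes. Beside the counts that follow, 9.07% of all genes rose and 7.52% fell in UUO against uninjured kidney. At folic acid day 3 it was 10.6% and 6.39%, at day 7 7.50% and 4.19%, and at day 14 4.20% and 1.47%. Of 11 genes of glutathione synthesis and recycling tested, 0 rose and 3 fell in UUO against uninjured kidney (limma; 1 and 5 at an unadjusted p under 0.05; list median log2 -0.58). They were Gclc, the catalytic subunit of the rate-limiting enzyme of glutathione synthesis (log2 -1.88, SE 0.46), Gsr, which reduces oxidised glutathione (log2 -1.86, SE 0.53), and the secreted peroxidase Gpx3 (log2 -0.96, SE 0.23). At folic acid day 3 only Glrx, a glutaredoxin, passed (log2 0.94, adjusted p = 0.0469), and 0 passed at days 7 and 14 (1 and 0 at an unadjusted p under 0.05). Of 6 mercapturate pathway genes, which trim glutathione conjugates, Dpep1 rose at day 3 (log2 2.53), Anpep rose at day 14 (log2 1.06) and the acetyltransferase gene Nat8 fell in UUO (log2 -1.91). No other gene of that list passed against uninjured kidney.

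In the list of UDP-glucuronate supply and glucuronide removal, at least 1 gene rose in each injured group. The list also held Ugcg, a gene of neither step. Of 8 tested, 2 rose and 0 fell in UUO (limma; 3 and 0 at an unadjusted p under 0.05). They were Ugdh, which makes UDP-glucuronate, also a building block of hyaluronan and heparan sulfate (log2 2.13, SE 0.32, adjusted p = 0.000878), and Ugcg, the glucosylceramide synthase (log2 1.70, SE 0.39). Ugdh also rose at folic acid day 3 (log2 1.63, SE 0.32). The lysosomal glucuronidase Gusb rose at days 3, 7 and 14 (log2 1.15, 1.07 and 1.17), Ugcg (log2 1.72) and the transporter gene Slc35b1 (log2 1.15) rose at day 7, and Slc35d2 fell at day 3 (log2 -0.68). The median log2 change of the list was 0.51, 0.50 and 0.42 at folic acid days 3, 7 and 14 and 0.40 in UUO, beside 0.02, 0.01, 0.02 and -0.01 for all genes.

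Of 11 genes of sulfate donor supply and sulfatases tested, 3 rose and 3 fell in UUO against uninjured kidney. Sulf1 (log2 3.46, SE 0.29, adjusted p = 1.77e-05) and Sulf2 (log2 2.21, SE 0.54), which cut sulfate from heparan sulfate outside the cell, rose, as did the PAPS transporter gene Slc35b3 (log2 0.89). The PAPS synthase gene Papss2 (log2 -2.03, SE 0.59) and the sulfate transporter genes Slc13a1 (log2 -3.23) and Slc26a1 (log2 -1.87) fell. Sulf1 also rose at folic acid days 3, 7 and 14 (log2 2.55, 3.04 and 1.99) and Sulf2 at days 3 and 7 (log2 3.25 and 2.63), and Slc26a1 fell at day 3 (log2 -1.73). Slc13a1 is also one of the 12 proximal tubule markers.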

How the data were processed

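Each of the 15 arrays has a deposited log2 intensity for 45141 probe sets. The submitters' processing notes give RMA as the authors' method and list affy and limma, with no versions. Normalization across arrays is built into RMA, so shifts common to most genes are removed. The values ran from 2.43 to 13.1, array medians from 4.93 to 5.06, and were used as deposited. The scanner's background was not used here. Of the probe sets 28898 named 1 gene, 551 several and 15692 were not named in the platform annotation.

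The 5 group means were estimated together by limma 3.58.1 (lmFit and eBayes under R 4.3.3), which left 10 residual degrees of freedom before moderation. The 6 pair comparisons and the F test were adjusted by Benjamini-Hochberg over 13523 genes, at a threshold of 0.05. Alternatives were no filter, a filter at the 60th percentile, array weights, quantile normalization, a fit of only the 6 arrays compared, limma's trend and robust options, centring on the median, the mean of probe sets, no _s_at or _x_at probe sets, a threshold of 0.01 and each array left out. Leaving out arrays 4, 7 and 8 together was added after seeing the data. It leaves arrays 5 and 6 at folic acid day 7 and only array 9 at day 14.

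The members, the supporting lists and the markers were chosen with earlier results of these data known. Named were every member that passed, the brightest of each class, every array of the 8 members with the smallest F-test p, and up to 4 passing genes per list. The lists were glutathione synthesis and recycling, the mercapturate pathway, UDP-glucuronate supply, sulfate supply, other glutathione transferases, other conjugating enzymes, conjugate transport and regulators. Markers covered proximal tubule, distal nephron, podocyte, fibroblast, macrophage, endothelium and lymphocyte. Plots were drawn with matplotlib 3.10.9 in Python 3.11.15.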

Additional observations from a re-analysis of the deposited data

Results flagged for a closer look

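Between the models at day 14, Ugt3a2 (log2 -4.83, SE 1.16, adjusted p = 0.0447) and Gsta2 (log2 -3.88, SE 0.90, adjusted p = 0.0385) differed between UUO and folic acid in limma's test of that difference. The Ugt3a2 call was lost on leaving out any of 12 single arrays (adjusted p 0.0517 to 0.148) and the Gsta2 call any of 11 (adjusted p 0.0515 to 0.12). Without arrays 4, 7 and 8 together only array 9 was left at folic acid day 14. Ugt3a2 then stood at log2 -3.65 and Gsta2 at log2 -2.83. Both were lower on all 3 UUO arrays than on all 3 folic acid day 14 arrays.

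Between times after folic acid, Ugt3a1 (log2 2.48, SE 0.53, adjusted p = 0.0266) and Sult5a1 (log2 -1.76, SE 0.34, adjusted p = 0.017) differed between day 14 and day 3 in limma's test. The Ugt3a1 call was lost without array 1, 2, 3, 7 or 8 (adjusted p 0.0517 to 0.0988). The Sult5a1 call was lost without array 1 or 3 (adjusted p 0.0592 to 0.0702). With only the 6 arrays compared both calls were lost (limma, adjusted p = 0.12 for Ugt3a1 and 0.109 for Sult5a1). Without arrays 4, 7 and 8 together only array 9 was left at day 14. Ugt3a1 then stood at log2 1.34 and Sult5a1 at log2 -1.49. Ugt3a1 was higher and Sult5a1 lower on all 3 day 14 arrays than on all 3 day 3 arrays.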

How the results depend on the processing

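Of 37 calls of single members 13 held under every alternative tried, 24 ended under at least 1, and 0 changed direction, with up to 26 alternatives for each. Counts of members that passed moved by over 1.5 times as follows. At folic acid day 7 against uninjured kidney 4 became 8 with array weights, 1 with only the 6 arrays compared, 1 at the threshold of 0.01 and 10 without arrays 4, 7 and 8. At day 14, 1 became 2 with array weights and 2 with only the 6 arrays compared. In UUO 12 became 6 at 0.01. For UUO against folic acid day 14, 2 became 0 without the filter and 5 with the filter at the 60th percentile. The count became 1 with only the 6 arrays compared and 0 at 0.01. For day 14 against day 3, 2 became 0 at 0.01. With only the 6 arrays compared that count was again 2, of which 0 were members that passed with all arrays. Comparisons with folic acid day 14 are given no count without arrays 4, 7 and 8, since only array 9 is left there. The F test's 9 became 2 at 0.01. With 1 array left out the counts ran from 5 to 8 at folic acid day 3, 1 to 9 at day 7, 1 to 3 at day 14, 8 to 13 in UUO, 0 to 8 for UUO against day 14, 0 to 4 for day 14 against day 3 and 5 to 13 in the F test. The number of all genes that passed moved as well, for example from 1580 to 880 at day 7 without array 14. The counts at 0.01 differ by the threshold alone, and the cause was not tested for the others. Over all genes the share of calls that were higher was 62.5%, 64.2% and 74.1% at folic acid days 3, 7 and 14, and 51.0%, 51.6% and 59.4% after quantile normalization. No paired analysis was possible because the running numbers of the arrays are not shared between groups. Signal over background was not available, so changes of dim members are limited by it.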

Other observations

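Beside the list counts that follow, 9.07% of all genes rose and 7.52% fell in UUO, and 10.6% and 6.39% at folic acid day 3. Of 11 other conjugating enzymes tested, which use groups such as glycine or methyl, 1 rose and 4 fell in UUO against uninjured kidney. The counts were the same at folic acid day 3. The falls were those of Acsm2 (log2 -5.42 in UUO and -3.56 at day 3), an acyl-CoA synthetase that activates acids for glycine conjugation, Keg1, a glycine N-acyltransferase-like gene (log2 -4.89 and -4.26), Acsm1 (log2 -2.65 and -2.47) and the methyltransferase gene Inmt (log2 -1.34 and -1.60). Nnmt, which methylates nicotinamide, rose (log2 1.39 in UUO and 2.13 at day 3). At day 7 Acsm2 (log2 -3.51) and Acsm1 (log2 -2.24) fell, and at day 14 limma called 0 (0 higher and 1 lower at an unadjusted p under 0.05). Of 8 other glutathione transferases and relatives of the microsomal ones, Alox5ap, which presents arachidonic acid for leukotriene synthesis in leukocytes, rose at folic acid days 3, 7 and 14 (log2 2.29, 1.86 and 1.82) and Clic1 at day 3 (log2 1.74). In UUO 0 passed (0 in either direction at an unadjusted p under 0.05).

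Of 12 tested transporter genes that move conjugates and their precursors, 2 rose and 6 fell in UUO against uninjured kidney, including Slco2b1 (log2 3.13) and Abcc1 (log2 1.00) upward and the tubule transporter genes Slc47a1 (log2 -4.64) and Slc22a8 (log2 -4.82) downward. Slco2b1 also rose at folic acid days 3, 7 and 14 (log2 6.18, 4.48 and 2.65). Slc22a8 and Slc22a6 are among the proximal tubule markers as well. Of 12 regulators and Nrf2 targets 3 rose and 4 fell in UUO. Cebpb (log2 3.40), Arnt (log2 2.13) and its partner Ahr (log2 2.40) rose, and Mafg fell (log2 -0.90). Nfe2l2, which encodes Nrf2, was measured and did not pass in any comparison. Of the marker lists not described above, 2 of 4 podocyte and 1 of 4 endothelial genes fell in UUO, and 0 of 3 lymphocyte genes passed there (0 at an unadjusted p under 0.05).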
